A study of Mus musculus with 4 samples.

Results

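Small leucine-rich proteoglycans (SLRPs) are secreted matrix proteins built around a chain of leucine-rich repeats. Most carry chondroitin, dermatan or keratan sulfate chains, and many bind collagen fibrils and set how thick and how evenly spaced they grow. Several also hold growth factors such as TGF-β in the matrix, and decorin, biglycan, lumican, fibromodulin and asporin are well known in periodontal ligament, cementum and bone. The family was represented by 9 genes chosen by symbol from a family list, Dcn, Bgn, Aspn, Lum, Fmod, Prelp, Omd, Ogn and Podn, out of 23107 genes in the deposited tables. All 9 were found and all 9 passed the filter on low values, which asked for 10 or more scaled counts in 2 or more of the libraries.

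RNA had been sequenced from tdTomato-positive cells, labelled PTHrP+, that were sorted from the dental follicle of mouse mandibular molars at postnatal day 8; the follicle is the loose mesenchyme that surrounds a growing tooth and forms its ligament, cementum and socket bone. Conditional Ptch1 knockouts (genotype Ptch1(-/-), cKO, n = 2 libraries) were set against conditional heterozygotes (genotype Ptch1(+/-), cHet, n = 2 libraries). Animals of both groups received tamoxifen at postnatal day 3, and both carried the reporter and at least 1 targeted allele, so no group with intact Ptch1 entered the comparison. The Cre driver, the number of animals per library and any pooling of animals are not given in the sources used here. Ptch1 encodes the hedgehog receptor that restrains the pathway when no ligand is bound, and the comparison asks how the transcripts of these cells differ when both copies are targeted.

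Libraries are called by their column names, cKO_0, cKO_1, cHet_0 and cHet_1. Values are the authors' scaled counts (read counts per gene divided by a factor for each library) unless FPKM is named, and log2 fold changes are differences of log2(scaled count + 3), cKO minus cHet. Their standard errors (SE), 95% intervals and p-values come from limma, fitted to all 14297 genes that passed the filter and adjusted over all of them by the Benjamini-Hochberg method. Scaled totals lay between 69361760 and 71228342. The library cHet_1 stood apart from the rest, with Pearson correlations across genes of 0.742 to 0.791 with the other libraries, against 0.811 to 0.893 among those. The libraries did not group by genotype. cHet_0 correlated at 0.893 with cKO_0 and 0.858 with cKO_1, whereas the cKO libraries correlated at 0.811 with each other. Genes at 1 FPKM or more numbered 9850 in cHet_1, 12360 in cHet_0, 12192 in cKO_0 and 11355 in cKO_1. Pthlh, which encodes PTHrP, had scaled counts of 12267 and 8613 in cKO libraries and 9253 and 15879 in cHet libraries, so the labelled marker was present in all of them. Transcripts of other dental cells were present too: 9 dental epithelium markers summed to 1.39% and 3.84% of scaled counts in cKO libraries and 0.823% and 2.07% in cHet libraries. Ptch1 itself had scaled counts of 22420 and 23341 in cKO libraries and 12867 and 5438 in cHet libraries; it is also a hedgehog target, and a value over the whole gene does not check the deletion. The hedgehog readout Gli1 averaged 6671 ± 401 in cKO and 3741 ± 553 in cHet (SD, n = 2 each), and the hedgehog target Hhip had 175453 and 160516 in cKO libraries and 62357 and 60651 in cHet libraries; neither overlapped between the groups.

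In scaled counts the family as a whole took a smaller part of the cKO libraries. The summed scaled counts of the 9 genes were 291981 in cKO_0 and 264430 in cKO_1, against 416071 in cHet_0 and 501080 in cHet_1. This was 0.419% and 0.374% of all scaled counts in cKO libraries and 0.600% and 0.703% in cHet libraries. Lum and Dcn made up most of that gap, but the sum of the other 7 genes was also lower, at 163123 and 148718 in cKO libraries and 172618 and 215407 in cHet libraries. The summed FPKM of the 9 genes was 2067 and 880 in cKO libraries and 3064 and 1363 in cHet libraries; it overlapped between the groups, and was lower in cKO within each column number. In bulk samples such as these, fewer cells that make a transcript and less of it per cell cannot be told apart.

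No member passed the test. Limma called 0 of the 9 members, against a background of 0% of the 14297 genes tested, and the lowest adjusted p among all genes was 0.913. With 2 libraries a group, a p that misses the threshold does not show that the values were alike. At an unadjusted limma p under 0.05 there were 2 members with lower values in cKO, Dcn and Lum, where the same rule took 1.49% of all genes in that direction. It took 0 members with higher values, against 1.54% of all genes. The values of cKO lay below those of cHet without overlap for 3 of the 9 members, Dcn, Lum and Bgn, and for 14.2% of all genes. No member had the reverse order without overlap, which 18% of all genes had. The fold change was below 0 for 8 of 9 members and for 43.7% of all genes, and the median over the members was -0.44 against 0.12 over all genes. Leaving out cKO_1 moved the members' median to -0.875.

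**Figure D1:**
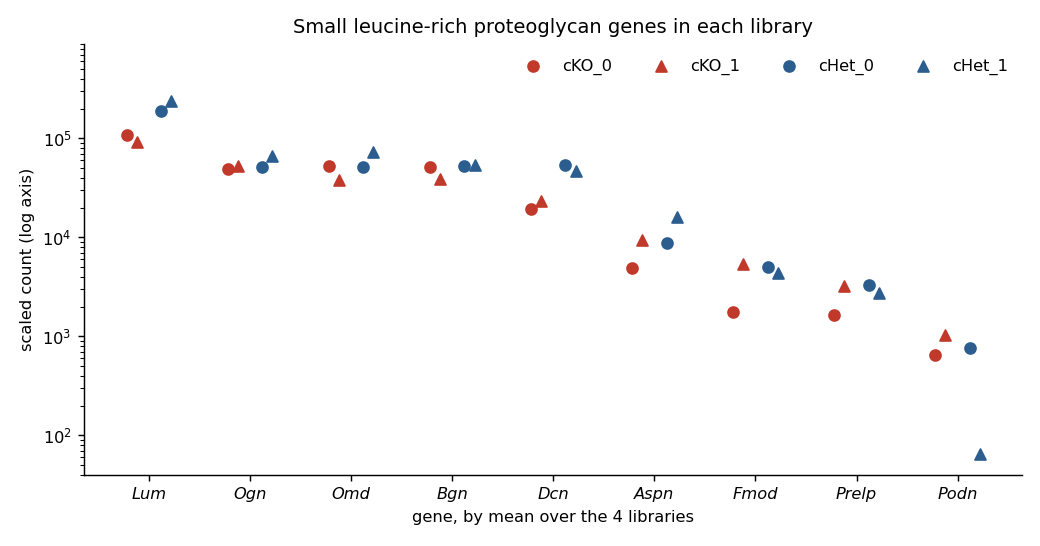
Scaled counts (log axis) of the 9 SLRP genes in each library, with cKO in red on the left and cHet in blue on the right of each gene, circles for the libraries numbered 0 and triangles for those numbered 1. Lum was highest in all 4 libraries, Dcn and Lum lay clearly lower in both cKO libraries, and the Podn value of 64.9 in cHet_1 stood far from its other values.

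Among the members whose protein carries or resembles the chondroitin and dermatan sulfate type, Dcn had the widest separation. Dcn encodes decorin, which coats collagen fibrils and limits their sideways fusion (chromosome 10, 97479609 to 97518143, plus strand, GRCm38, the assembly of mm10). It had scaled counts of 19594 and 23248 in cKO libraries, against 54343 and 46719 in cHet libraries. Both cKO values were under both cHet values, and the gap between the groups was several times the spread within either. The means were 21421 ± 2584 in cKO and 50531 ± 5391 in cHet (SD, n = 2 each), 2.36-fold higher in cHet on the fitted scale. Limma gave a log2 fold change of -1.24 (SE 0.23, 95% interval -1.78 to -0.70, unadjusted p of 0.000713 and adjusted p = 0.913). By p, Dcn ranked 10 and Lum ranked 25 among the 14297 genes. Its fold change stayed between -1.36 and -1.12 whichever library was left out, with adjusted p between 0.053 and 1.

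Bgn, biglycan, is the closest relative of decorin, a matrix and signalling proteoglycan that reaches its mature form after BMP1 removes a propeptide (chromosome X, 73483602 to 73495933, plus strand). Its scaled counts were 51609 and 38972 in cKO libraries and 52286 and 53829 in cHet libraries. The groups did not overlap, but cKO_0 lay only just under cHet_0, and the spread within cKO was wider than that gap. The log2 fold change of Bgn was -0.24 (SE 0.24, 95% interval -0.80 to 0.31, unadjusted p of 0.344 and adjusted p = 0.916). Without cKO_1 it was -0.04, and without cKO_0 it was -0.45, so that the size of this value rests on cKO_1.

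Aspn encodes asporin, which binds collagen and TGF-β, lacks a glycosaminoglycan chain and is abundant in periodontal ligament (chromosome 13, 49544443 to 49567565, plus strand). It had scaled counts of 4942 and 9343 in cKO libraries and 8698 and 16089 in cHet libraries. The higher cKO value exceeded the lower cHet value, so the groups overlapped, although within each column number cKO was lower, by a log2 difference of -0.82 for the libraries numbered 0 and -0.78 for those numbered 1. The fitted log2 fold change was -0.80 (SE 0.42, 95% interval -1.76 to 0.16, unadjusted p of 0.0907 and adjusted p = 0.913). It was -0.34 without cKO_0 and -0.36 without cHet_1, against -1.26 without cKO_1 and -1.24 without cHet_0.

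The keratan sulfate members began with Lum, lumican, a fibril-spacing proteoglycan best known for the transparency of the cornea (chromosome 10, 97565128 to 97572703, plus strand). Lum had the highest FPKM of the 9 genes in every library and scaled counts of 109264 and 92464 in cKO libraries, against 189110 and 238954 in cHet libraries. Both cKO values lay under both cHet values, with means of 100864 ± 11880 in cKO and 214032 ± 35245 in cHet (SD, n = 2 each). For Lum, limma gave a log2 fold change of -1.08 (SE 0.27, 95% interval -1.70 to -0.46, unadjusted p of 0.00371 and adjusted p = 0.913). Leaving out 1 library at a time gave values between -1.25 and -0.91. Lum was called without cHet_0 (log2 fold change -1.25), the only setting in which any member was called. That fit left 1 cHet library, and most of the genes it called were higher in cKO, unlike Lum. The spread of a group of 1 library cannot be measured, so the call is not taken as a result about Lum.

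Dcn and Lum are neighbours. They lie on the same strand of chromosome 10 with 46984 bases and 0 other protein-coding genes between them, followed by Kera, keratocan, and Epyc, epiphycan. Kera was listed at 0 in all 4 libraries. Epyc was listed at 0 and 2.27 in cKO libraries and 147 and 1.05 in cHet libraries and did not pass the filter. The lower values in cKO were therefore seen at the 2 abundant genes of the cluster, and the other 2 genes gave too few counts for a comparison.

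Fmod and Prelp, neighbours on chromosome 1, both had their lowest value in cKO_0 and overlapped between the genotypes. This was not particular to the pair. Dcn, Ogn and Aspn also had their lowest value in cKO_0, and of these Ogn and Aspn overlapped too. Fmod encodes fibromodulin, which shares a collagen-binding site with lumican and takes part in tendon and ligament fibril growth (chromosome 1, 134037254 to 134048277, plus strand). Prelp encodes a protein of cartilage and basement membrane borders that binds heparan sulfate (chromosome 1, 133910304 to 133921414, minus strand). Fmod had scaled counts of 1771 and 5376 in cKO libraries and 4990 and 4388 in cHet libraries. Prelp had 1637 and 3228 in cKO libraries and 3288 and 2745 in cHet libraries. In both genes cKO_0 was low and cKO_1 was as high as the cHet libraries, so the groups overlapped.

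The log2 fold change of Fmod was -0.60 (SE 0.55, 95% interval -1.87 to 0.67, limma adjusted p = 0.913) and turned to 0.20 without cKO_0. That of Prelp was -0.39 (SE 0.52, 95% interval -1.59 to 0.82, limma adjusted p = 0.933) and turned to 0.10 without cKO_0. The ratio of Fmod to Prelp was 1.08 and 1.67 in cKO libraries and 1.52 and 1.60 in cHet libraries. The genes point away from each other on chromosome 1 with 115839 bases between them, and Optc, opticin, lies 2304 bases beyond Prelp and was nearly silent, at 0 and 10.2 in cKO libraries and 128 and 1.05 in cHet libraries. An antisense transcript, Gm15851, shares 350 exon bases with Prelp, and since the use of strand in counting is not stated, its reads could be counted with Prelp.

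The promoters of this pair are shown because the genes are neighbours and had their lowest value in the same library, as some other members did. Each sequence runs 5′ to 3′ on the strand of its gene from 250 bases before to 50 after the start site in RefSeq (GRCm38.p6), chr1:134037004-134037303 on the plus strand for Fmod and chr1:133921352-133921651 on the minus strand for Prelp.
Fmod: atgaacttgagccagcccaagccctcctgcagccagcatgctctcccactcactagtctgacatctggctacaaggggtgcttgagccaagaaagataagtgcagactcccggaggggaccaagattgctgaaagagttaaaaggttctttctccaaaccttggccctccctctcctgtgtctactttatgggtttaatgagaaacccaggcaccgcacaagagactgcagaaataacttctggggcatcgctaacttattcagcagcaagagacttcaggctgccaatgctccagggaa
Prelp: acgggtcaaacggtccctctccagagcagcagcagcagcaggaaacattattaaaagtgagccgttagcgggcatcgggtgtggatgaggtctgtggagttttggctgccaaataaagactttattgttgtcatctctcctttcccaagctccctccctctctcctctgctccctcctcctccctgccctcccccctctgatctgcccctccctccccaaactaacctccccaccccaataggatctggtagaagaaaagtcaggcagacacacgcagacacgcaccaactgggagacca
Since the contrast concerns hedgehog signalling, both strands of these windows were searched for the Gli binding letters GACCACCCA, for their core CCACCCA, which the longer motif contains, and for the TATA box letters TATAAA. Neither window held any of them, and so all letters stand in lower case. Over 32851 promoter windows of the same length, 0.253% held the Gli motif, 9.3% its core and 13.6% the TATA box letters. The windows of Bgn, Omd, Ogn and Aspn and both windows of Podn held no Gli core either. Dcn and Lum have no entry in the promoter table.

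Omd and Ogn, with Aspn, form the cluster on chromosome 13, where they lie on the same strand with gaps of 14896 and 15223 bases and with Ecm2 in front. Omd encodes osteomodulin, also called osteoadherin, a keratan sulfate proteoglycan of mineralised tissue that binds integrins (49582462 to 49592822, plus strand). It had scaled counts of 52930 and 38465 in cKO libraries and 51715 and 72213 in cHet libraries. The libraries numbered 0 were nearly equal and those numbered 1 lay far apart, so the groups overlapped. Omd had a log2 fold change of -0.44 (SE 0.28, 95% interval -1.07 to 0.20, unadjusted p of 0.15 and adjusted p = 0.913). It was -0.21 without cKO_1 and -0.20 without cHet_1, against -0.67 without cKO_0 and -0.68 without cHet_0.

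Ogn encodes osteoglycin, also called mimecan, a small member found in bone and connective tissue (49608046 to 49624501, plus strand). Its scaled counts were 49590 and 52300 in cKO libraries and 50879 and 66078 in cHet libraries. Of these, 3 lay close together and cHet_1 was higher, and the groups overlapped. Ogn had a log2 fold change of -0.19 (SE 0.24, 95% interval -0.74 to 0.37, limma adjusted p = 0.929), and it was 0.001 without cHet_1.

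Neighbours in this cluster did not share a pattern as closely as their positions. Aspn overlapped between the groups with the widest relative spread, whereas Omd and Ogn stayed near each other, with an Omd to Ogn ratio of 1.07 and 0.735 in cKO libraries and 1.02 and 1.09 in cHet libraries. Ecm2, a related matrix gene, had 358 and 254 in cKO libraries and 418 and 322 in cHet libraries. All 3 members lie within the span of Cenpp, a centromere protein gene on the opposite strand. Cenpp shares 7 exon bases with Aspn and 0 with Omd or Ogn. The promoters of Aspn and Ogn are shown as the windows of the family that held any of the letters searched, with the TATA box letters in capitals, at chr13:49544193-49544492 for Aspn and chr13:49607765-49608064 for Ogn, both on the plus strand of GRCm38.p6 and from RefSeq.
Aspn: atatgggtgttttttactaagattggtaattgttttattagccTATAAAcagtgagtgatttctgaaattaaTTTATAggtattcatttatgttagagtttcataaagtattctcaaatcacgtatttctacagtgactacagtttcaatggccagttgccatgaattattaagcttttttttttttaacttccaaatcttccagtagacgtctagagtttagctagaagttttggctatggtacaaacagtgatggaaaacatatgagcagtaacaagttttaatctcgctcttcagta
Ogn: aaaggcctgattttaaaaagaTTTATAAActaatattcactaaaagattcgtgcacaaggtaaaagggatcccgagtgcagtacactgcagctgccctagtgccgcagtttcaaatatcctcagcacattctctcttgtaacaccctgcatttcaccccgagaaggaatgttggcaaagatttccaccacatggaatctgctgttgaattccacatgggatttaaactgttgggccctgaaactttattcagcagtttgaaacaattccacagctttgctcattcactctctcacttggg
In Aspn the matches began 207 bases before the start site on the gene's strand and 178 bases before it on the other strand. In Ogn a match on each strand overlapped, beginning 227 and 229 bases before the start site. A match of these letters is a description and not a mapped promoter element.

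Podn was the only member with a fold change above 0, and its value rested on cHet_1. Podn encodes podocan, a collagen-binding member first described in kidney podocytes (chromosome 4, 108014791 to 108096445, minus strand). It had scaled counts of 644 and 1033 in cKO libraries and 763 and 64.9 in cHet libraries. The cHet_0 value fell between the cKO values, while cHet_1 was lower by more than the whole range of the others. The log2 fold change of 1.84 (SE 1.65, 95% interval -1.95 to 5.64, limma adjusted p = 0.913) was 0.10 without cHet_1.

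**Figure D2:**
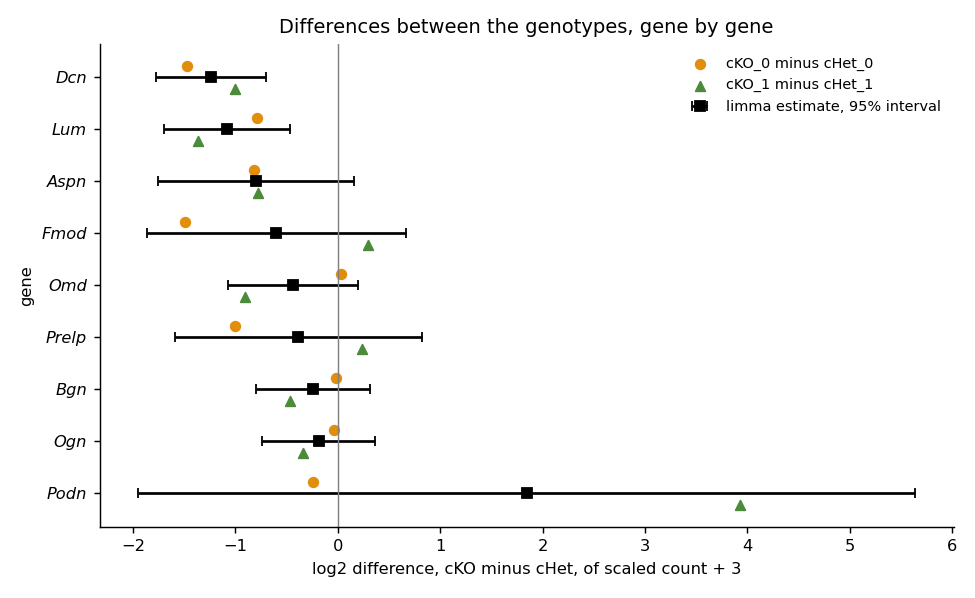
Log2 difference, cKO minus cHet, of scaled count + 3 for each SLRP gene, with limma's estimate and 95% interval as black squares and bars (n = 2 libraries a group) and the differences within each column number as orange circles (libraries numbered 0) and green triangles (libraries numbered 1). The intervals of Dcn (-1.78 to -0.70) and Lum (-1.70 to -0.46) did not reach 0, before any adjustment for the number of genes, and the circles and triangles of Fmod, Prelp, Omd and Podn lay on opposite sides of 0.

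Levels were compared between genes in FPKM, which is per length. Lum led with 789 and 287 FPKM in cKO libraries and 1404 and 616 FPKM in cHet libraries. It ranked 41 and 140 among all genes in cKO libraries and 15 and 43 in cHet libraries. Bgn, Omd, Ogn and Dcn formed the next tier, between 88.7 and 468 FPKM in every library, and their order among themselves changed from library to library. Aspn and Fmod had 9.14 to 60.3 FPKM, Prelp 6.64 to 13.2 FPKM and Podn 0.30 to 4.52 FPKM. Lum made up 38.2% and 32.7% of the summed FPKM of the family in cKO libraries and 45.8% and 45.2% in cHet libraries. Dcn made up 7.67% and 11.9% in cKO libraries and 14.8% and 12.7% in cHet libraries. Bgn made up 15.4% and 24.6% in cKO libraries and 10.4% and 19.1% in cHet libraries, which overlapped.

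The FPKM table relates to the scaled counts differently in the libraries numbered 0 and 1. For Ogn, 1000 scaled counts corresponded to 5.91 and 1.70 FPKM in cKO_0 and cKO_1, and to 6.24 and 1.34 FPKM in cHet_0 and cHet_1. For Podn the same figures were 4.56 and 4.38 FPKM in the cKO libraries and 4.45 and 4.63 FPKM in the cHet libraries. Over 6895 genes with at least 1000 scaled counts in every library, FPKM per scaled count in cHet_1 ran from 0.242 to 1.22 times that in cHet_0 (5th to 95th percentile), whereas cKO_0 stayed within 0.954 to 1.04 times cHet_0. The libraries numbered 1 matched less closely, with cKO_1 at 0.927 to 1.23 times cHet_1 (median 1.08). FPKM values of members were therefore set side by side within a column number. In number 1 the FPKM differences still include this shift between the 2 libraries.

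Within column numbers, FPKM gave the same directions as scaled counts for 7 members, and not for Omd and Ogn. On the log2(FPKM + 1) scale Dcn differed by -1.51 between cKO_0 and cHet_0 and by -0.71 between cKO_1 and cHet_1. Lum differed by -0.83 and -1.10 in the same order, Aspn by -0.89 and -0.35 and Bgn by -0.004 and -0.27. Omd differed by -0.035 and -0.47 and Ogn by -0.12 and 0.004 in FPKM, whereas in scaled counts the differences were 0.03 and -0.91 for Omd and -0.04 and -0.34 for Ogn. Each number holds 1 library a genotype, so these differences have no replicate check. Dcn, Lum, Aspn, Bgn and Omd, 5 of the 9 members, were thus lower in cKO in both numbers, as were 21.9% of the 12278 genes tested in FPKM. Across all 4 libraries only Dcn among the members kept its groups apart in FPKM, lower in cKO as were 8.75% of those genes, with 159 and 105 in cKO libraries and 452 and 173 in cHet libraries, and limma on log2(FPKM + 1) gave a log2 fold change of -1.11 (SE 0.52, unadjusted p of 0.0411 and adjusted p = 1).

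Ratios within a library do not depend on the factor by which a library was scaled, but they do depend on the table they are taken from. For each scaled count of Bgn there were 0.380 and 0.597 of Dcn in cKO libraries, against 1.04 and 0.868 in cHet libraries. Lum stood at 2.12 and 2.37 times Bgn in cKO libraries and 3.62 and 4.44 times in cHet libraries. In scaled counts both ratios were lower in cKO without overlap, as was the ratio of Lum to Omd, at 2.06 and 2.40 in cKO libraries and 3.66 and 3.31 in cHet libraries. The ratio of Dcn to Lum overlapped, at 0.179 and 0.251 in cKO libraries and 0.287 and 0.196 in cHet libraries. So did that of Bgn to Ogn, at 1.04 and 0.745 in cKO libraries and 1.03 and 0.815 in cHet libraries. In FPKM the ratio of Dcn to Bgn was again lower in cKO without overlap, at 0.497 and 0.486 in cKO libraries and 1.41 and 0.662 in cHet libraries. The FPKM ratio of Lum to Omd was also lower, at 1.73 and 2.26 in cKO libraries and 2.998 and 3.49 in cHet libraries. The FPKM ratio of Lum to Bgn overlapped, at 2.47 and 1.33 in cKO libraries and 4.39 and 2.36 in cHet libraries. Within each column number it was lower in cKO. These pairs were chosen after the values were seen, and the ratios carry no test.

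**Figure D3:**
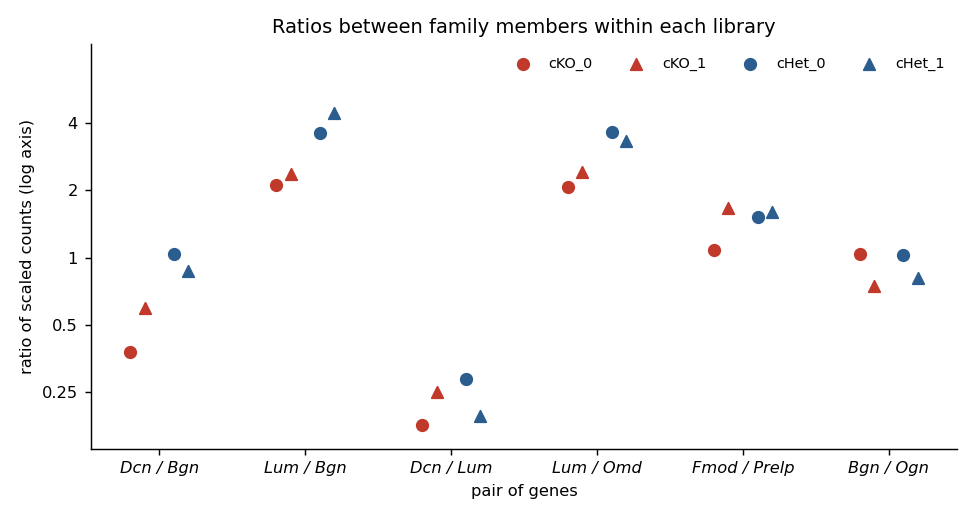
Ratios of scaled counts between pairs of SLRP genes within each library (log axis), cKO in red on the left and cHet in blue on the right of each pair, circles for libraries numbered 0 and triangles for those numbered 1. In these counts Dcn to Bgn, Lum to Bgn and Lum to Omd were lower in both cKO libraries. Dcn to Lum, Fmod to Prelp and Bgn to Ogn overlapped between the groups. In FPKM, Lum to Bgn overlapped between the groups but was lower in cKO within each column number.

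The collagens that these proteins bind had lower values in cKO for some chains, and the members differed in how they stood to them. Of 12 collagen genes listed as partners, 8 had fold changes below 0 and 4 above, limma called 0, and the median was -0.21. Without overlap, 6 lay lower, as did 14.2% of all genes, and 3 higher, as did 18% of all genes. Those with the lowest p were Col12a1 (-1.31, SE 0.33), Col11a1 (-0.95, SE 0.25) and Col14a1 (3.24), the last with 41.9 in cHet_1 against 2221 in cHet_0. Per 1000 scaled counts of Col1a1, the main fibrillar collagen gene of bone and ligament, Lum had 51.5 and 44.0 in cKO libraries and 51.5 and 70.9 in cHet libraries, which overlapped. Dcn had 9.23 and 11.1 per 1000 of Col1a1 in cKO libraries and 14.8 and 13.9 in cHet libraries, lower without overlap. Bgn had 24.3 and 18.6 per 1000 of Col1a1 in cKO libraries and 14.2 and 15.97 in cHet libraries, higher without overlap. Per 1000 scaled counts of Col3a1, another listed collagen, Lum had 51.0 and 46.1 in cKO libraries and 91.9 and 83.0 in cHet libraries. Dcn had 9.14 and 11.6 per 1000 of Col3a1 in cKO libraries and 26.4 and 16.2 in cHet libraries. Both were lower without overlap. In FPKM the ratio of Dcn to Col3a1 was also lower without overlap, and that of Lum to Col3a1 overlapped. In FPKM the ratios of Lum, Dcn and Bgn to Col1a1 all overlapped between the groups. Within each column number, with 1 library a genotype, the sizes of these FPKM differences varied. Dcn to Col1a1 was lower in cKO in the libraries numbered 0, at 0.0233 against 0.0394. In those numbered 1 it was nearly equal, at 0.0115 against 0.0117. Bgn to Col1a1 was higher in cKO, at 0.0469 against 0.0279 in number 0 and 0.0236 against 0.0177 in number 1. Lum to Col1a1 differed little in number 0, at 0.116 against 0.122. In number 1 it was lower in cKO, at 0.0314 against 0.0418.

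Genes that make the sugar chains of the SLRPs were counted from lists and gave no calls. Of 23 genes of chondroitin and dermatan sulfate assembly, 13 had fold changes below 0 and 10 above, with a median of -0.17 and 0 calls by limma. The lowest p were those of Pxylp1, the phosphatase of the linker xylose (listed as Acpl2; -1.20, SE 0.38), the sulfotransferase gene Chst11 (-2.62, SE 1.33) and the chondroitin synthase gene Chsy1 (-0.54, SE 0.29). Chst11 had 237 and 154 scaled counts in cKO libraries and 1388 and 1021 in cHet libraries. Among 6 tested genes of keratan sulfate assembly, 4 had fold changes above 0, with a median of 0.38 and 0 calls. The sulfotransferase gene Chst2 (0.77, SE 0.28) had 16610 and 15443 in cKO libraries and 7962 and 11100 in cHet libraries, next to Chst1 (0.78, SE 0.42) and B4galt1 (0.64).

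Other partners and relatives of the members showed no shared direction as lists, though the TGF-β ligand genes among them were all lower in cKO. Of 9 tested genes listed as proteases that cut SLRPs, 4 had fold changes below 0 and 5 above (median 0.05, 0 calls). The list includes Pcolce, which encodes an enhancer of BMP1 and not a protease. Bmp1, which processes biglycan, had 23069 and 26446 in cKO libraries and 25235 and 36343 in cHet libraries. Adamts5, a proteoglycan-cutting protease, had 18729 and 13561 in cKO libraries and 10311 and 2790 in cHet libraries (1.57, SE 0.55), next to Mmp2 (-0.46) and Adamts4 (0.54). Of 12 growth factors and receptors that SLRPs bind, 7 had fold changes below 0 (median -0.14, 0 calls), among them Tgfb1 (-0.59, SE 0.29), Tgfb3 (-0.33) and Tgfb2 (-0.43). These Tgfb genes were lower in cKO without overlap. In that list 4 genes were lower and 1 higher without overlap, against 14.2% and 18% of all genes. Of 18 large and cell-surface proteoglycans, 8 had fold changes below 0 and 10 above (median 0.07, 0 calls). Gpc3, a glypican, had 196156 and 184707 in cKO libraries and 105643 and 85582 in cHet libraries (1.0, SE 0.26), whereas Sdc3 (-0.84, SE 0.26) and Hspg2 (-0.81, SE 0.31) were lower without overlap. Of 6 tested SLRP family genes outside the 9 members, 4 had fold changes below 0 (median -0.26, 0 calls), and those with the lowest p were Tsku (1.88), Chadl (3.22) and Optc (-1.87). Chadl had 603 and 498 in cKO libraries and 568 and 3.14 in cHet libraries, so its value came from cHet_1.

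**Figure D4:**
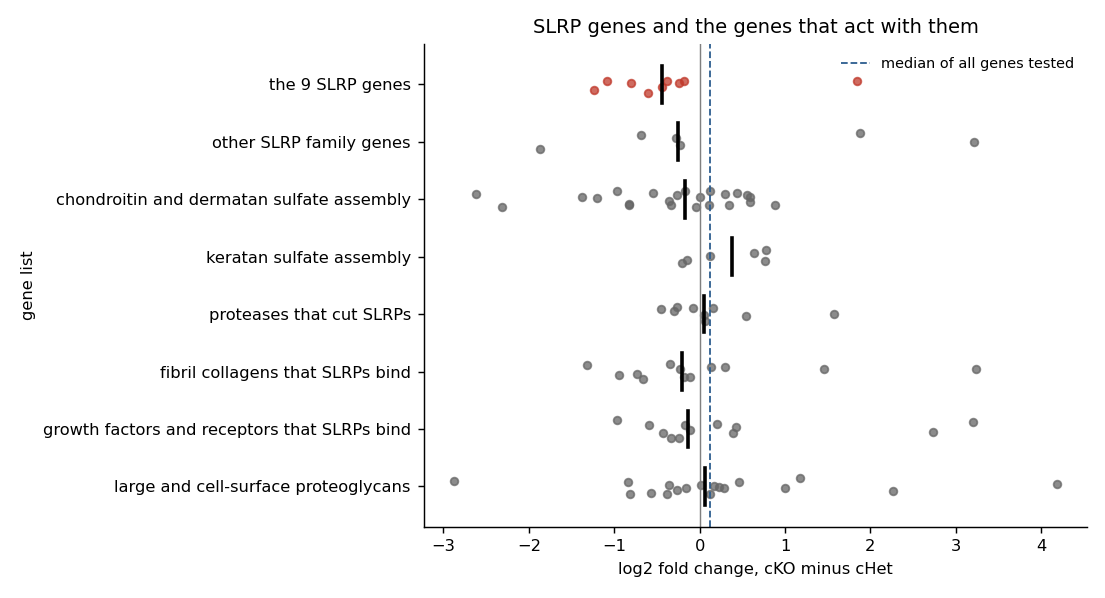
Log2 fold change, cKO minus cHet, of each tested gene (points) in the list of 9 SLRP genes (red, top row) and in 7 lists of related genes (grey), with a black bar at the median of each list and a dashed line at the median of all genes tested, 0.12. The 9 SLRP genes had a median of -0.44 with 8 points below 0, and the lists of related genes had medians between -0.26 and 0.38.

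Summed markers of cells that the sort could hold lay apart between the groups in 4 lists and overlapped in 3. Beside the counts that follow, 14.2% of all genes were lower and 18% higher in cKO without overlap, and the median fold change of all genes was 0.12. The 8 odontoblast and osteoblast markers summed to 0.336% and 0.353% of scaled counts in cKO libraries and 0.445% and 0.556% in cHet libraries. Of these, 5 were lower in cKO without overlap and 0 higher, and the list's median log2 fold change was -1.86, further below 0 than the members' -0.44. The 11 dental follicle markers, which include Col12a1, summed to 0.471% and 0.387% in cKO libraries and 0.483% and 0.665% in cHet libraries, with 4 lower and 2 higher without overlap and a median of -0.34. Both of these sums were thus lower in cKO. The follicle sum was so only narrowly, at 0.471% in cKO_0 against 0.483% in cHet_0, and its markers went both ways.

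Schwann cell markers summed to 0.00979% and 0.0321% in cKO libraries and 0.00434% and 0.000964% in cHet libraries, and 4 of the 6 were higher without overlap, with a median of 2.97. Pericyte and smooth muscle markers summed to 0.122% and 0.142% in cKO libraries and 0.116% and 0.117% in cHet libraries, with 1 of 7 lower and 1 higher without overlap and a median of 0.26. These 2 sums were higher in cKO. The 9 epithelium markers gave the overlapping shares stated above, with 0 of them at 0 in any library, 1 lower and 0 higher without overlap and a median of 0.02. Endothelial markers summed to 0.00531% and 0.0104% in cKO libraries and 0.00340% and 0.00669% in cHet libraries, which overlapped, with the defining marker Pecam1 at 0 in cHet_0. Emcn, which did not pass the filter, was at 0 in cKO_0. Of the 6 endothelial markers tested, 3 were higher without overlap and 0 lower, with a median of 3.34. Leukocyte markers summed to 0.00185% and 0.0168% in cKO libraries and 0.00196% and 0.0100% in cHet libraries, which overlapped, with Ptprc at 0 in cHet_1. Adgre1, listed as Emr1, went the other way, with 0 and 2.27 in cKO libraries and 36.4 and 203 in cHet libraries. Of the 7 leukocyte markers tested, 1 was lower and 2 higher without overlap, with a median of 0.63. The part of these cells in the values of Dcn, Lum and the other members was not tested.

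The genes whose pattern over the 4 libraries was most like that of Dcn were Ltbp2, Wnt10a and Wdr37, among the 8963 tested genes that averaged 1000 or more scaled counts. Likeness was the root mean square difference of log2 values, each gene centred on its own mean, and it was 0.066, 0.12 and 0.125. Ltbp2, a latent TGF-β binding protein gene, had 1921 and 2361 in cKO libraries and 5362 and 4200 in cHet libraries. The genes most like Bgn were Rap1b, Sept7 and Copz1, at 0.01, 0.022 and 0.026. Among the members themselves the closest pairs were Bgn with Omd (0.185), Bgn with Ogn (0.209), Ogn with Omd (0.23), Fmod with Prelp (0.246) and Dcn with Lum (0.273). With 4 libraries many genes can come this close to a given pattern, and the order is a description.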

How the data were processed

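Cells were sorted, and their RNA was isolated with PicoPure, amplified with SMART-Seq v4 and built into Nextera XT libraries, per the labels' protocols. The submitters' processing notes name build mm10 and, without saying which did what, TopHat2 (2.0.13), Bowtie2 (2.2.1), FastQC, Cufflinks, Cuffdiff, HTSeq and DESeq2. Scaled counts, a signal unit, are counts per gene divided by a library factor by the authors; FPKM values were deposited in a second table, per length and library size. Strand use in counting is not stated.

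A count test had been planned, but the usable tables hold no whole counts; 16 further columns in 4 tables match no label and were not used. Limma (3.58.1, in R 4.3.3), with its prior variance following abundance, was run on log2(scaled count + 3) with group as the term, two-sided, at a threshold of 0.05, after being tested on simulated data. There it called all genes that were set to change when noise was low, and none with the noise observed here. A count of 0 calls therefore does not show that genes were alike. Limma's SE is pulled toward the SE typical at that abundance. Reads of amplified cDNA do not count molecules, so the spread between libraries (median SE 0.74) sets the precision, not the totals. Columns are numbered from 0 and sample titles from 1, so each column has a group but no sample. The labels do not say whether libraries came from separate animals; p-values then reflect only how far these libraries differ, possibly for technical reasons.

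The members, the gene lists and the rules were chosen with earlier results of these data known. All members are named, with up to 3 genes of lowest p per related list and the 3 genes most like Dcn and like Bgn. The rule also takes Ptch1, Gli1 and Hhip as hedgehog pathway genes, whose values do not check the deletion. Pthlh, Pecam1, Emcn, Ptprc, Adgre1, Bmp1, Pcolce, Col1a1, Col3a1, Ecm2, Epyc and Kera were named outside that rule, after their values were seen. All 148 list entries were matched, by symbol or by a unique RefSeq synonym. Coordinates are from GENCODE vM21 (GRCm38), 1-based. Alternatives changed the pseudocount, filter, scaling, unit, weights, libraries or block.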

Additional observations from a re-analysis of the deposited data

How the results depend on the processing

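Over 16 alternatives Dcn, Lum, Bgn, Omd and Aspn kept a fold change below 0 (Dcn from -1.36 to -1.11, Lum from -1.25 to -0.91). Fmod ranged from -1.40 to 0.20 when 1 library was left out, Prelp from -0.875 to 0.10 and Ogn from -0.376 to 0.001; Fmod and Prelp changed sign without cKO_0 and Ogn without cHet_1. With 1 library left out, the lone library of its group is assumed to vary like the other group. The members' median then lay between -0.875 (without cKO_1) and -0.34, members called between 0 and 1 (Lum, without cHet_0), and genes called between 0 and 1139. Without overlap, 4 members were lower without cKO_0 (29.9% of all genes), 7 without cKO_1 (26.8%), 6 without cHet_0 (32.8%) and 4 without cHet_1 (29%).

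In log2(FPKM + 1), log2(FPKM + 0.1) and unfiltered log2(FPKM + 1), 1 member (Dcn) was lower without overlap, against 8.75%, 8.75% and 8.54% of all genes, and limma called 7, 2 and 0 of all genes. Within column numbers, chosen after seeing the data, 5 members and 21.9% of all genes were lower in FPKM in both numbers. A replicate block on the column number left 0 genes called and the members' median at -0.44, and changed no member's call; the same block on log2(FPKM + 1), added after seeing the data, called 1 gene. Deviations of same-numbered libraries correlated at 0.049 across genes, and the labels give the number no meaning, so the numbers are not taken as pairs. Median-of-ratios scaling moved the median of all genes from 0.12 to 0.02 and that of the members to -0.54. The planned edgeR and DESeq2 fits were not run, since whole reads could not be recovered. The cause of these changes was not tested. Podn, Epyc and Optc had few counts in some libraries.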
